A study of Mus musculus with 2 samples.

Results

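The lysyl oxidase genes Lox, Loxl1, Loxl2, Loxl3 and Loxl4 were examined in an ATAC-seq comparison of mouse primary cardiac fibroblasts with and without knockdown of the mechanosensitive channel Piezo2. Their regions were the rows of the deposited peak table that name one of the 5 genes, 13 in all, together with 6 intergenic peaks that the table places nearest to the transcription start site (TSS) of one of them. This gave 19 of the 63316 peaks in the table: 3 for Lox, 6 for Loxl1, 2 for Loxl2, 1 for Loxl3 and 7 for Loxl4. ATAC-seq uses a transposase that cuts and tags open DNA, so that reads pile up where chromatin is accessible. It does not measure transcripts or enzyme.

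The control library (labelled NC, and called SCR here after the scrambled siRNA named by the study) came from heart fibroblasts treated with TGF-β. The other (siPiezo2) came from the same type of cells given TGF-β and an siRNA against Piezo2. Both had received TGF-β at 5 ng/ml for 24 h, so no unstimulated cells are compared. No allele or genotype is given for either library. The design text of the series instead describes a Cre-induced knockout of Tet3, which neither sample label mentions, and the labels were followed. Each condition is 1 library. The differences below therefore have no replicate check, and no p-value was computed. How many animals or cultures went into each library is not given in the sources used here.

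Lysyl oxidases are secreted, copper-dependent amine oxidases. They convert lysine and hydroxylysine side chains of collagen and elastin to reactive aldehydes, which then condense into the covalent cross-links that stiffen the matrix. Lox and Loxl1 are made with a propeptide that is removed outside the cell, whereas Loxl2, Loxl3 and Loxl4 carry scavenger receptor cysteine-rich domains ahead of the catalytic domain. In the heart, cross-linked collagen is a hallmark of stiff, fibrotic myocardium, and activated fibroblasts are its main source.

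Values are normalized read densities, the authors' reads per kb in a window of 2000 bp at each peak after a linear fit that centres the peaks found in both libraries. All windows together contain 4615335 SCR reads and 2754046 siPiezo2 reads, with a median of 58 and 36 per peak. Intervals in brackets are 95% exact binomial intervals from the reads, and cover counting error only. At peaks called in both libraries the ratios scattered with 2.15 times the variance that counting gives, so each was also widened by that factor where stated. This excess grew with the reads, from 1.49 times at 50 to 100 reads to 4.03 times at 300 to 500, so intervals were also widened by the factor for each peak's own read number (called read-matched), a choice made after seeing the data. The labelled cell type was checked by peaks within 1 kb of the TSS of marker genes. Such peaks were found for 8 of 10 fibroblast markers (Lum and Thy1 had none), for 0 of 6 cardiomyocyte markers and for 0 of 5 leukocyte markers. They were found for 1 of 4 endothelial markers (Tek, with a density of 25.8 in SCR against 28.1 in siPiezo2) and for 2 of 6 smooth muscle and pericyte markers, Myh11 and Cnn1, whose summed density was 53.5 in SCR against 45.4 in siPiezo2. The summed fibroblast marker density was 688 in SCR against 613 in siPiezo2. The part of these differences in the results below was not tested. At Piezo2 itself the 15 peaks summed to 359 in SCR and to 259 in siPiezo2, but an siRNA acts on the transcript, so this does not check the knockdown.

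Of the 19 lysyl oxidase peaks, 13 were lower in siPiezo2 and 6 were higher, and the share below 0, 68.4%, was close to the 63.7% of all peaks. Their log2 ratios, computed as log2((siPiezo2 + 1)/(SCR + 1)) of the densities, had a median of -0.33, while all peaks in the table had a median of -0.13. Taken past 1.5-fold, 7 of the 19 peaks were below 0.66 of SCR, against 13.5% of all peaks, and 2 were above 1.5 of SCR, against 3.21% of all peaks. The balance over all peaks depended on the scaling, since 80.8% of the peaks past a threshold were lower with the authors' scaling and 48.1% with recovered reads at the same total. For the lysyl oxidase peaks that scaling gave 6 lower and 3 higher, against 7.74% and 8.35% of all peaks, with 12 of 19 below 0, against 48.0% of all peaks. Neighbouring peaks can share reads, since the windows are wider than most peaks. In 15 lysyl oxidase peaks whose windows do not overlap, a choice made after seeing the data, 4 were lower and 1 was higher past these thresholds, with a median of -0.28. The lowered peaks belonged to Lox, Loxl1 and Loxl4, and both raised peaks to Loxl2. The lysyl oxidase peaks were stronger than most: their median density in SCR was 48.8, against 24.5 over all peaks. Peak calling placed 10 of them in both libraries, 9 in SCR only and 0 in siPiezo2 only. Of all peaks, 33.8% were called in both, 64.0% in SCR only and 2.16% in siPiezo2 only. A peak called in SCR only is listed through the library in which it is high, so its low ratio is partly fixed by the peak calling. All 9 such lysyl oxidase peaks were below 0 and 6 of them past 0.66 of SCR, against 73.1% and 18.3% of all peaks called in SCR only. Of the 10 called in both libraries, 4 were below 0, with a median of 0.10, and 1 was lower and 2 were higher past the thresholds. Over all peaks called in both, 49.7% were below 0, 5.36% lower and 4.41% higher. The 1 lowered peak called in both was the Lox promoter. The part of the calling in the counts over all 19 peaks was not tested.

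**Figure D1:**
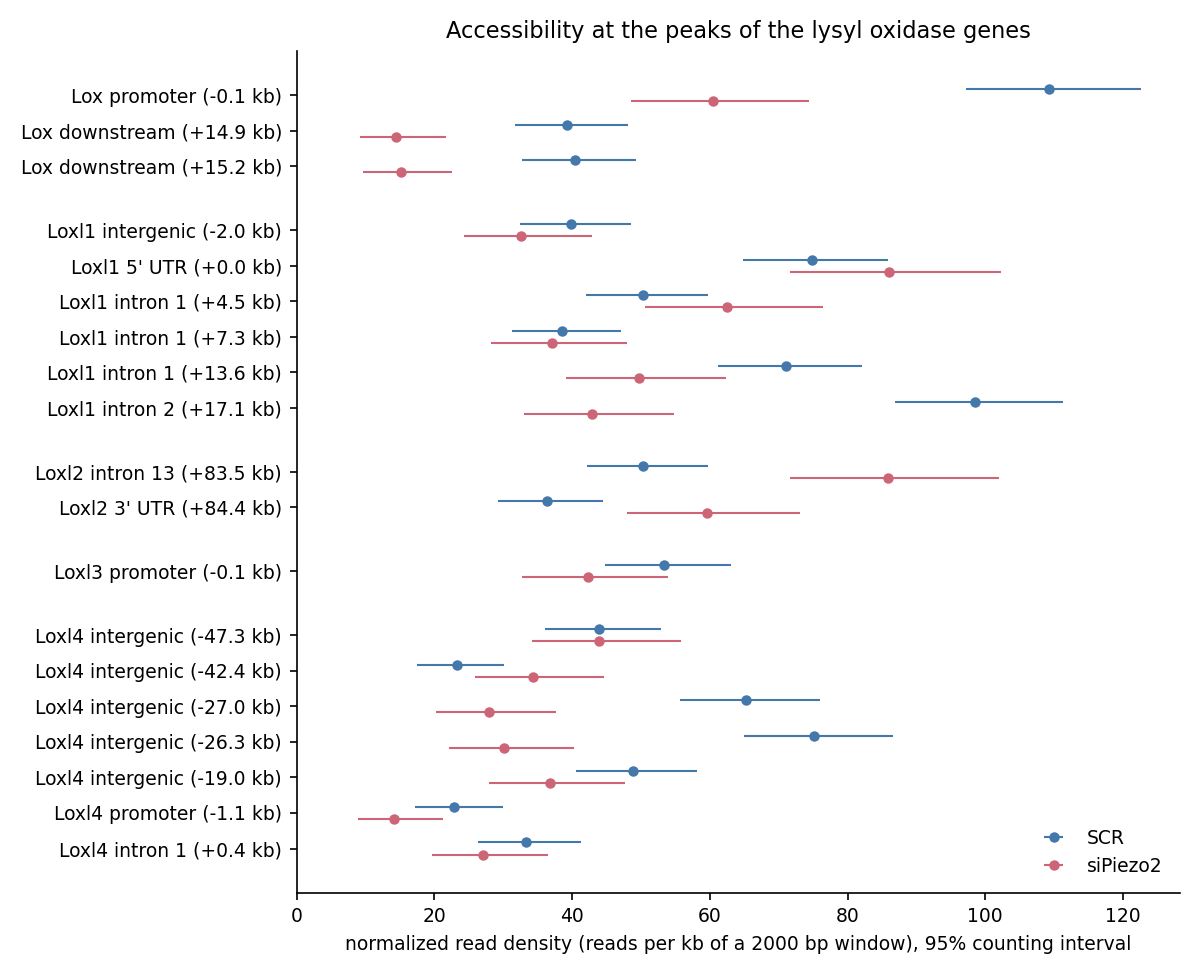
Normalized read density (x axis, reads per kb) at each of the 19 lysyl oxidase peaks in the SCR (blue) and siPiezo2 (red) libraries, 1 library each, with 95% exact Poisson intervals that cover counting error only. Distances in the labels are from the start of the named gene in its own direction. The SCR point lies far to the right of the siPiezo2 point at the Lox peaks, at the Loxl1 intron 2 peak and at a pair of distal Loxl4 peaks, and to the left of it at both Loxl2 peaks.

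Lox (ENSMUSG00000024529, chromosome 18 from 52649139 to 52662746, minus strand) encodes the founding member of the family, which cross-links collagen and elastin. Its summed density was 189 in SCR against 90.2 in siPiezo2, so that 47.7% of the control value was left. The log2 ratio was -1.06 [-1.34 to -0.78], -1.46 to -0.66 when widened and -1.56 to -0.56 when read-matched. All 3 of its peaks were lower past 0.66 of SCR, but the promoter peak alone was called in both libraries, and the other 2 in SCR only. Among the 16273 genes with at least 100 reads in the libraries together, 0.369% had a lower ratio than Lox.

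The promoter peak of Lox, from 52662403 to 52663221, had the highest density of the family in SCR. Its counting interval there, 97.1 to 123, overlapped that of the Loxl1 intron 2 peak, 86.9 to 111. The Lox promoter peak had a density of 109 in SCR against 60.5 in siPiezo2, from 293 and 89 reads. Its log2 ratio was -0.84 [-1.20 to -0.50], read-matched -1.53 to -0.16. It was called in both libraries, and 98.7% of all peaks had a lower mean density. The noncoding gene Gm41724 starts beside Lox on the other strand, and accessibility has no strand, so this peak cannot be assigned to only one of them.

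A pair of peaks 14.9 and 15.2 kb from the Lox start, just past the end of the gene, was weaker and had lower ratios, with intervals that overlap that of the promoter peak. The table assigns both peaks to Lox as downstream of it, but the TSS nearest to them is that of Gm41724, 13.9 and 14.2 kb away. The peak from 52647716 to 52647916 had a density of 39.3 in SCR against 14.5 in siPiezo2, a log2 ratio of -1.38 [-2.10 to -0.71]. The peak from 52647392 to 52647621 had 40.4 and 15.2, a log2 ratio of -1.36 [-2.07 to -0.70]. Their summits are 310 bp apart, so they are largely the same reads and count as 1 measurement. With only 1 of them kept, the log2 ratio of Lox was -0.97 [-1.29 to -0.67].

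Upstream of Lox lie 4 peaks in introns of Gm41724 that the table places nearest to the Lox TSS without assigning them to Lox. Their log2 ratios were -0.57 at 6.14 kb before the Lox start, -0.35 at 29.3 kb, 0.16 at 34.8 kb and -0.19 at 41.3 kb, and the interval of each included 0. With these 4 peaks added to the sum, a choice made after seeing the data, the log2 ratio of Lox was -0.65 in place of -1.06. Within 100 kb of the gene, 8 of 10 peaks not belonging to Lox were below 0, with a median of -0.32, and 1 was past 0.66 of SCR. The ratios of all 10 were above those of the 3 Lox peaks, though some intervals overlapped. The lowest of the 10, in intron 1 of Zfp474, had -0.74 [-1.62 to 0.09], against -0.84 [-1.20 to -0.50] for the Lox promoter peak.

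Loxl1 (ENSMUSG00000032334, chromosome 9 from 58195021 to 58220469, minus strand) encodes an enzyme that acts mainly on elastic fibres. Its 6 peaks had a summed density of 373 in SCR against 311 in siPiezo2, or 83.3% of the control, a log2 ratio of -0.26 [-0.43 to -0.10]. The median of all genes, -0.11, lay inside this interval, and the read-matched interval reached 0.02. The peaks did not move together, and ranged from -1.18 to 0.31.

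At the start of Loxl1 the siPiezo2 library was not lower. The peak over its 5′ UTR, from 58220198 to 58220719, had a density of 74.8 in SCR against 86.0 in siPiezo2, a log2 ratio of 0.20 [-0.13 to 0.53]. An intron 1 peak 4.51 kb from the start had 50.3 and 62.5, with a ratio of 0.31 [-0.09 to 0.70]. At this depth no difference was detectable at either. The same held 2.02 kb upstream, where an intergenic peak had 39.9 and 32.6, a ratio of -0.28 [-0.80 to 0.22].

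Further into Loxl1 the ratios were lower. At 7.31 kb the intron 1 peak had a density of 38.5 in SCR against 37.1 in siPiezo2, a log2 ratio of -0.05. At 13.6 kb it was 71.1 and 49.7, a ratio of -0.51 [-0.91 to -0.11], though the widened interval reached 0.06. At 17.1 kb the intron 2 peak, from 58203043 to 58203666, had 98.6 and 42.9, or 43.5% of the control, from 259 and 64 reads. Its log2 ratio was -1.18 [-1.60 to -0.78], -1.76 to -0.60 when widened and -1.98 to -0.39 when read-matched. This intronic peak was the strongest of Loxl1 in SCR and was called there only, whereas in siPiezo2 the 5′ UTR peak was the strongest. Past the gene's end, 29.6 kb from its start, a peak nearest to Gm57034 also had a low ratio, -0.81 [-1.34 to -0.29]. The other 10 peaks within 100 kb that are not assigned to Loxl1 lay between -0.31 and 0.13.

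Loxl2 (ENSMUSG00000034205, chromosome 14 from 69846517 to 69933283, plus strand) encodes an oxidase that acts on fibrillar and basement membrane collagens. It was the only one of the 5 genes with a summed ratio above 0. Its density was 86.7 in SCR against 145 in siPiezo2, or 168% of the control, a log2 ratio of 0.74 [0.46 to 1.01], 0.35 to 1.13 when widened and 0.32 to 1.16 when read-matched. Of the genes with at least 100 reads, 99.7% had a lower ratio.

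Both Loxl2 peaks lie at its 3′ end. The peak in intron 13, from 69929676 to 69930316, had a density of 50.4 in SCR against 85.8 in siPiezo2, from 132 and 129 reads, a log2 ratio of 0.76 [0.40 to 1.12]. The peak in the 3′ UTR, from 69930814 to 69931111, had 36.3 and 59.6, a ratio of 0.70 [0.27 to 1.13]. Their summits are 966 bp apart, so the windows overlap and the peaks are not separate measurements. With only the intron 13 peak kept, the log2 ratio of Loxl2 was 0.76 [0.40 to 1.12], widened 0.24 to 1.27 and read-matched 0.17 to 1.35. At the 3′ UTR peak the recovered reads were equal, with 92 in each library, while the siPiezo2 library had fewer reads over all windows. The higher density there therefore depends on scaling for depth, by the authors' normalization or to the same total. With recovered reads at the same total the log2 ratio was 0.74 at this peak and 0.72 for Loxl2.

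No peak was listed at the TSS of Loxl2, and 0 were listed from 100 kb before its start to 80 kb into the gene. The TSS nearest to the Loxl2 peaks is that of R3hcc1, 7.47 and 6.51 kb away. The peak at the 5′ UTR of R3hcc1 had a log2 ratio of 0.51 [-0.06 to 1.08], that at the Chmp7 promoter 0.30 and that at Tnfrsf10b 0.11. All 5 peaks listed within 100 kb of Loxl2 were thus above 0, and the intervals of the 3 outside the gene included 0. Accessibility alone does not show which gene a region acts on.

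Loxl3 (ENSMUSG00000000693, chromosome 6 from 83011154 to 83029543, plus strand) encodes an oxidase known for its part in palate and spine development. It had 1 peak, at the promoter from 83010920 to 83011217, with a density of 53.4 in SCR against 42.4 in siPiezo2. The log2 ratio was -0.33 [-0.78 to 0.11], so no difference was detectable at 136 and 65 reads. The window overlaps that of the Dok1 promoter peak, 0.593 kb before the Loxl3 start, which had 59.9 and 46.0 and a ratio of -0.37. Of 20 other peaks within 100 kb, 13 were below 0 and 3 were past 0.66 of SCR. The lowest was a peak in an intron of M1ap, 16.7 kb upstream, at -0.82 [-1.23 to -0.43].

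Loxl4 (ENSMUSG00000025185, chromosome 19 from 42582421 to 42601252, minus strand) encodes the family member closest in build to Loxl2 and Loxl3. Its 7 peaks had a summed density of 313 in SCR against 215 in siPiezo2, or 68.7% of the control, a log2 ratio of -0.54 [-0.73 to -0.35]. With the 5 peaks whose windows are separate it was -0.38 [-0.59 to -0.17].

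The difference came mainly from distal intergenic DNA. A peak 26.3 kb upstream, from 42627104 to 42627974, had a density of 75.2 in SCR against 30.2 in siPiezo2, from 192 and 46 reads, a log2 ratio of -1.29 [-1.79 to -0.82]. Its neighbour at 27.0 kb, from 42628086 to 42628336, had 65.3 and 28.0, a ratio of -1.19 [-1.71 to -0.70]. With summits 672 bp apart they share reads. These are the strongest Loxl4 peaks in SCR, and both were called there only.

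The remaining Loxl4 peaks had smaller or no differences. The peak 19.0 kb upstream had 48.8 in SCR against 36.9 in siPiezo2, a log2 ratio of -0.40 [-0.87 to 0.07]. The farthest, 47.3 kb upstream, had 43.9 and 44.0, a ratio of 0.0017. At 42.4 kb upstream the density was 23.2 and 34.3, a ratio of 0.54 [-0.02 to 1.11] that fell just short of 1.5 of SCR. Loxl4 thus had peaks on either side of 0, with those 26.3 and 27.0 kb upstream lowest. Of 5 other peaks within 100 kb, all in R3hcc1l, 2 were past 0.66 of SCR, at -0.98 and -0.79 in its intron 1, and the median was 0.0080.

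Near the Loxl4 start the accessibility was the weakest of the 4 genes with a peak there. The intron 1 peak, 0.355 kb into the gene, had a density of 33.2 in SCR against 27.1 in siPiezo2, a log2 ratio of -0.28 [-0.85 to 0.27]. A peak 1.13 kb upstream had 22.9 and 14.2, a ratio of -0.66 [-1.43 to 0.07], past 0.66 of SCR but from 53 and 23 reads. Its window overlaps that of the intron 1 peak. The read window of the intron 1 peak takes in the start of the gene, and the bases before that start are shown because an upstream sequence from RefSeq was at hand for it.

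The 250 bases before the Loxl4 start (RefSeq, GRCm38.p6, chr19:42612807-42613056, minus strand, printed 5′ to 3′) are given in lower case with each match to the GC box GGGCGG in capitals.
Loxl4 upstream: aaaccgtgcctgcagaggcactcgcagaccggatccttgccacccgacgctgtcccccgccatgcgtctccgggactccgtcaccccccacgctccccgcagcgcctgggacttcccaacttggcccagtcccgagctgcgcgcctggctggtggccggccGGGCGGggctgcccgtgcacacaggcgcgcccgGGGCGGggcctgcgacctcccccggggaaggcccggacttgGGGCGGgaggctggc
These bases are 76% G or C, against a median of 52.4% over 32851 upstream windows of the same length. They hold 3 matches to GGGCGG, which 32.7% of all windows hold on either strand. This motif and TATAAA were searched after the sequence had been seen. No match was found to the CArG box bound by SRF (in 1.47% of all windows), to GGAATG, bound by TEAD factors (12.6%), to TGANTCA, bound by AP-1 (6.75%), to GAGGAAGT, bound by PU.1 (2.44%), or to TATAAA (12.4%). No motif search was made in the distal peaks, whose coordinates are of another assembly than these bases.

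**Figure D2:**
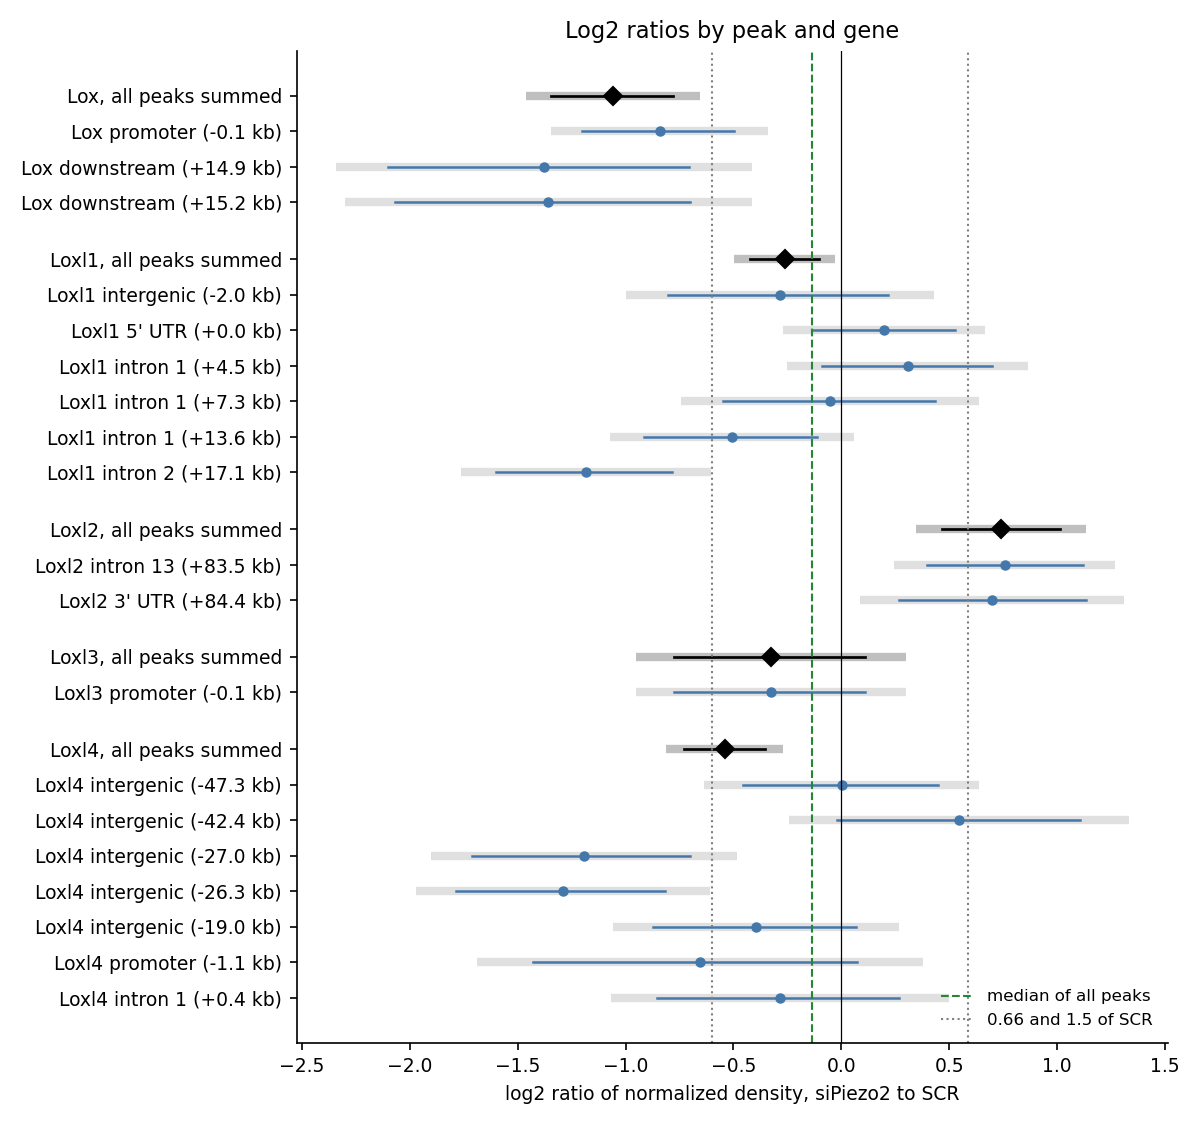
Log2 ratio of normalized density, siPiezo2 to SCR, for each lysyl oxidase gene summed over its peaks (diamonds) and for each peak (circles). Thin lines are 95% exact binomial intervals and broad grey bars the intervals widened by the single factor of 2.15, not read-matched. The dashed line is the median of all peaks (-0.13) and dotted lines mark 0.66 and 1.5 of SCR. Lox lies wholly below 0 and Loxl2 wholly above it, while the peaks of Loxl1 and Loxl4 fall on either side.

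Ordered by the log2 ratio of their summed density, the genes ran Lox (-1.06), Loxl4 (-0.54), Loxl3 (-0.33), Loxl1 (-0.26) and Loxl2 (0.74). By this sum 1 of the 5 genes was below 0.66 of SCR, against 6.45% of the 20186 genes with a peak, and 1 was above 1.5, against 1.49%. Lox was lower than Loxl1 by a log2 difference of -0.80 (95% interval -1.11 to -0.48, read-matched -1.37 to -0.22). Lox minus Loxl4 was -0.52 (-0.85 to -0.19), but the read-matched interval reached 0.051, so this pair was not told apart beyond the scatter between peaks. Lox minus Loxl3 was -0.73 (-1.24 to -0.23), with a read-matched interval up to 0.14. Loxl1 minus Loxl2 had an interval of -1.31 to -0.69, read-matched -1.51 to -0.50. Neighbours in the middle of the order could not be told apart: Loxl3 minus Loxl4 was 0.21 (-0.25 to 0.68) and Loxl1 minus Loxl3 was 0.063 (-0.39 to 0.52). These intervals compare the libraries, with shared windows counted more than once. The sums of Lox, Loxl1 and Loxl4 also hold peaks called in SCR only, whose low ratios are partly fixed by the calling. No difference between sums was computed without those peaks. With separate windows Lox minus Loxl4 was -0.60, with a read-matched interval of -1.25 to 0.053.

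At the gene starts the order of the density levels differed between the libraries. In SCR the peak within 1 kb of the TSS was at 109 for Lox (95% exact Poisson interval 97.1 to 123), 74.8 for Loxl1 (64.8 to 85.9), 53.4 for Loxl3 (44.8 to 63.1) and 33.2 for Loxl4 (26.4 to 41.3), and none of these intervals overlap. In siPiezo2 Loxl1 came first at 86.0 (71.7 to 102), then Lox at 60.5 (48.6 to 74.5), Loxl3 at 42.4 (32.7 to 54.0) and Loxl4 at 27.1 (19.6 to 36.5), and each interval overlaps that of its neighbour. The same orders held in the reads, with 293, 200, 136 and 81 in SCR for Lox, Loxl1, Loxl3 and Loxl4, and 89, 127, 65 and 43 in siPiezo2. The log2 ratio at the Lox start was lower than at the Loxl1 start by a difference of -1.04 (95% interval -1.51 to -0.57, read-matched -1.98 to -0.098). At the starts, Lox minus Loxl3 was -0.52 (-1.06 to 0.031) and Lox minus Loxl4 was -0.56 (-1.19 to 0.075), both of which include 0. Whether a region was open in fewer cells or less open in each cell cannot be told apart in these bulk libraries.

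**Figure D3:**
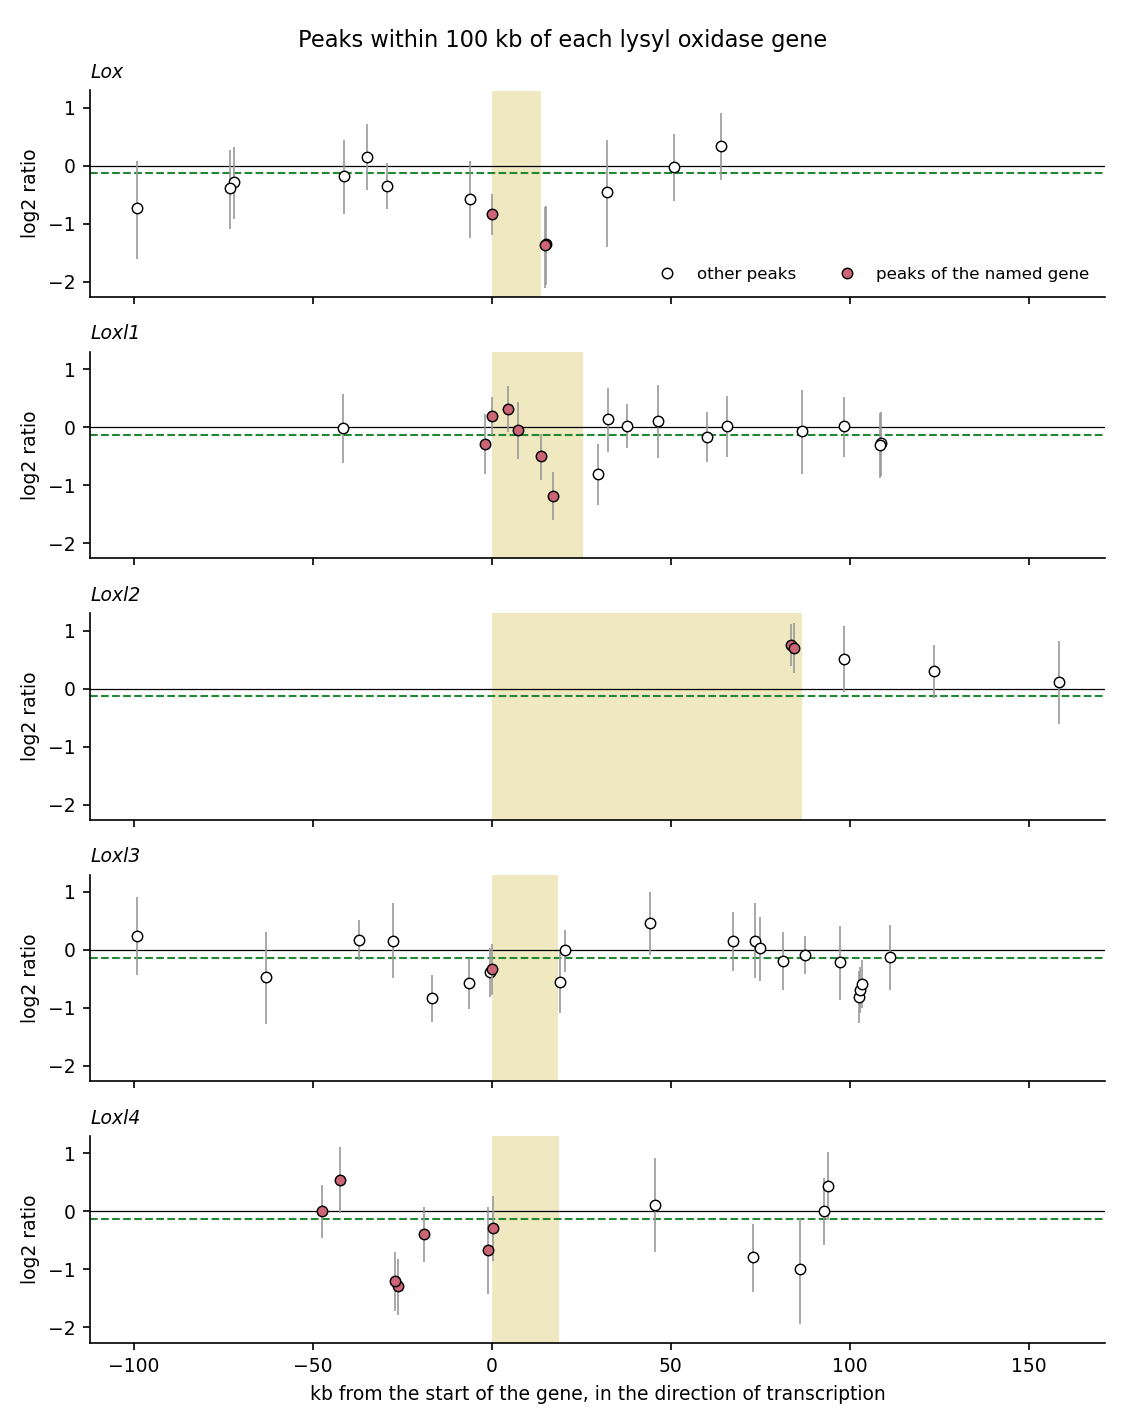
Log2 ratio of every listed peak within 100 kb of each lysyl oxidase gene against its distance from the start of the gene in the direction of transcription (kb). Filled points are peaks of the named gene, open points other peaks, grey lines 95% exact binomial intervals, the shaded band the gene and the dashed line the median of all peaks. The ratio falls from 0.31 to -1.18 along Loxl1, the 3 Lox peaks lie at or below -0.84 and all 5 peaks around the end of Loxl2 lie above 0.

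Genes that work with the lysyl oxidases were taken from 4 lists, of which 45 of 49 genes had a peak. In the list of collagen and elastin substrates and scaffold proteins, 15 of 16 genes were below 0 and the median of their log2 ratios was -0.37. All genes with a peak had a median of -0.11, and 65.7% of them were below 0, which is the background for the counts below 0 in each of the 4 lists with the authors' scaling. None of them was past 0.66 of SCR in its summed density, and 11 had a counting interval wholly below 0, against 3631 of the 20186 genes with a peak. With widened intervals 8 of the 16 did, against 8.29% of all genes. The genes of this list had a median of 853 reads in both libraries together, against 227 over all genes, which narrows their intervals. Reads shared by overlapping windows are counted more than once in all such gene sums, which narrows intervals further. The part of either in the counts was not tested. The lowest were Fbln5 (-0.59, from 227 in SCR to 150 in siPiezo2), which tethers Loxl1 to elastic fibres, the collagen gene Col11a1 (-0.57, from 267 to 180) and Col1a1 (-0.55, from 854 to 583), a chain of the main fibrillar collagen. With median-of-ratios scaling 13 of the 16 were below 0, against 46.4% of all genes. The order of these genes depended on the scaling: with recovered reads at the same total Col11a1 had -0.35, Fbln5 -0.48 and Col1a1 -0.55.

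In the list of proteins that process or recruit lysyl oxidase, 6 of 8 genes were below 0 with a median of -0.30, 2 were past 0.66 of SCR (6.45% of all genes) and 1 was above 1.5 (1.49% of all genes). Thbs1, a matricellular protein, went from 446 in SCR to 184 in siPiezo2 (-1.28 [-1.47 to -1.09]). Fn1, which encodes fibronectin, on which lysyl oxidase is processed, went from 268 to 147 (-0.87 [-1.09 to -0.65]). Bmp1, the protease that removes the propeptide of Lox, had 229 and 169 (-0.44 [-0.66 to -0.23]). Pcolce2, the gene above 1.5, had 1 peak with only 23 and 34 reads (0.90 [0.10 to 1.73], widened -0.22 to 2.02, which includes 0). It lies outside the rule for naming genes and was chosen after its value was seen.

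The remaining lists lay near the median of all genes. Among enzymes and chaperones that modify procollagen, 11 of 16 genes with a peak were below 0 with a median of -0.14, and 1 was past 0.66 of SCR, about the 6.45% of all genes. With median-of-ratios scaling this list had 8 of 16 below 0 and a median of 0.00095, near the 46.4% below 0 and the median of 0.024 of all genes. The largest differences were those of the prolyl hydroxylase subunit gene P4ha3 (-0.68, from 203 to 126), the collagen galactosyltransferase gene Colgalt2 (-0.56, from 64.5 to 43.6) and Plod2 (-0.31, from 458 to 368), a lysyl hydroxylase whose product feeds the lysyl oxidase reaction. With recovered reads at the same total the last 2 had -0.32 and -0.20. Among copper transport genes, 4 of 5 with a peak were below 0 with a median of -0.15, and 3 of 5 with median-of-ratios scaling, in which 46.4% of all genes were. Cox17 had -0.51 [-1.03 to -0.0077], Atp7b -0.25 and the copper chaperone Atox1 -0.15, and all 3 widened intervals include 0. Atp7a, the transporter that loads copper into secreted oxidases, had 51.9 in SCR against 56.9 in siPiezo2, and was likewise named after its value was seen.

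**Figure D4:**
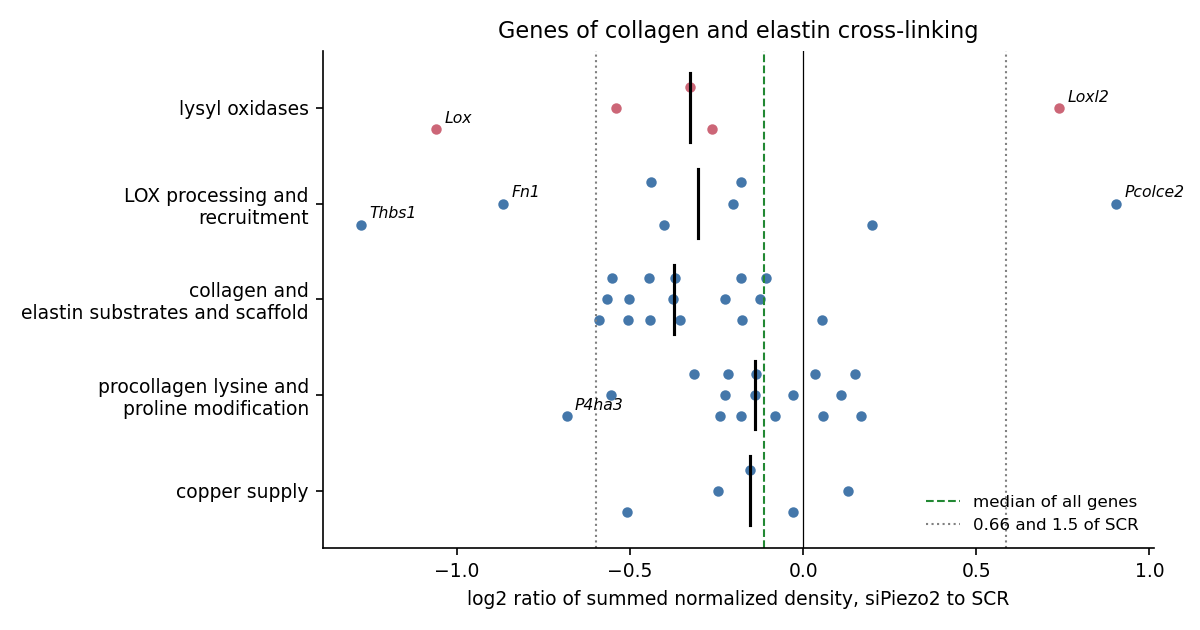
Log2 ratio of summed normalized density, siPiezo2 to SCR, for the 5 lysyl oxidase genes and for the genes with a peak in 4 lists of cross-linking partners (rows). Each point is 1 gene, spread vertically for legibility, short black lines are list medians, the dashed line is the median of all genes (-0.11) and dotted lines mark 0.66 and 1.5 of SCR. Genes past these thresholds are named, and the substrate list has its median at -0.37, left of that of all genes.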

How the data were processed

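ATAC-seq was carried out on 1 library per condition. Per the labels, BWA 0.7.12 was used and mm10 is named, and the methods add adapter trimming, Picard and MACS2. The methods describe minced tissue, another library kit than the labels and a DESeq2 comparison by the authors, whereas the table has the form given next. The authors deposited 1 table of peaks, in which the signal columns are scaled read densities. Their form, read from the values, is that of an MA-plot normalization, in which the log2 ratio is regressed on mean log2 signal. Its log2 ratio and p-value columns, the authors' own comparison, were not used. Of 16254 genes in the table that GENCODE M21 (GRCm38) holds, 191 had the same start and end, and its scaffold names are those of GRCm39. Positions are therefore given as in the table, and no sequence was read by them.

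Whole reads per 2000 bp were recovered from the densities by finding the intercept (-0.25) and slope (0.17) that make reads whole in both libraries, to within 0.05 read for 100% of the peaks. From them came the exact intervals (Clopper-Pearson for ratios, Poisson for levels). Differences between genes used a normal approximation on the log2 scale. The extra variance is the median squared deviation of peaks called in both libraries over that of counting error, and includes any real differences between the libraries. Read-matched intervals take this ratio within 4 ranges of read number. The members, the lists and their rules were chosen with earlier results of these data known. Named partner genes were the 3 with the largest absolute ratio per list among those with at least 100 reads. Alternatives covered the pseudocount (0.1), scaling, threshold (2-fold), read number (20) and choice of peaks. The procedures were tested on simulated data. Calculations used scipy 1.17.1, pandas 2.3.3 and numpy 2.4.6 under Python 3.11.15, and plots matplotlib 3.10.9.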

Additional observations from a re-analysis of the deposited data

How the results depend on the processing

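Of the values for the 5 genes and the 19 peaks, most stayed within their intervals, or within 1.5 times for counts, under the alternatives tried, and 0 reversed past a threshold. With the 4 Gm41724 intron peaks added, the log2 ratio of Lox was -0.65. With only the peak of highest mean density over both libraries, which is also the peak within 1 kb of the TSS, that of Loxl1 was 0.20, opposite in sign to its sum and to the -1.18 of its strongest peak in SCR. For Loxl4 the peak of highest mean density alone gave -1.29 and the peak near the TSS -0.28. At a 2-fold threshold 0 peaks were higher (2 at 1.5-fold) and 5 were lower. In peaks with separate windows 4 were lower and 1 higher. Scaling moved the median of all genes by 0.087 with densities at the same total, by 0.14 with median-of-ratios scaling and by 0.14 with recovered reads at the same total. In each of these 3 scalings 6 of the 19 peaks were lower and 3 higher (7 and 2 in the authors' scaling). Over all peaks the shares were 9.97% lower and 4.90% higher, 8.35% and 6.27%, and 7.74% and 8.35% in these scalings, so the move from 2 to 3 is not read as a change. In them Lox stayed between -1.08 and -0.92, and Loxl2 between 0.72 and 0.88. Loxl2 has no peak within 1 kb of its TSS, so that alternative gave no value, and the windows of Loxl1 and the 1 peak of Loxl3 left nothing to change in the choice of separate windows. With read-matched intervals, 0 was no longer outside the interval for Lox minus Loxl4, Lox minus Loxl3, Loxl1 minus Loxl4, the sum of Loxl1 and its peak at 13.6 kb. With 1 library per condition no replicate could be left out. No paired analysis was possible because each condition has 1 library. Depth limits the single peaks: at 53 and 23 reads, the interval of a log2 ratio ran from -1.43 to 0.07.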
